A study of Oryza sativa and Triticum aestivum and Oryza sativa Japonica Group with 26 samples.

Results

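H3K4me3 and H3K27ac, 2 histone modifications of active promoters, were compared in young panicles of the rice cultivar JZ1560. The 3 libraries were H3K4me3 replicate 1, H3K4me3 replicate 2 and the single H3K27ac library, chosen by cultivar and mark from the 26 samples of the series, which also holds rice cultivar HHZ and bread wheat. All 3 came from japonica plants without a mutation or treatment in the labels, grown in soil in a field in Shanghai under natural conditions, with panicles fixed in formaldehyde. Chromatin was precipitated with Abcam ab8580 for H3K4me3 and with catalogue number 07-360 for H3K27ac, and sequenced as single reads of 51 bp. The labels do not say that the H3K4me3 replicates came from separate plants, so their spread may be technical. A panicle holds many cell types, and a peak in both lists does not show that the same cells or molecules carry both marks.

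H3K4me3 is deposited on nucleosomes just after the transcription start by SET-domain methyltransferases. H3K27ac is placed by histone acetyltransferases, neutralises a lysine charge, and cannot coexist on the same residue with H3K27me3, the mark set by Polycomb repressive complex 2 at silenced genes. H3K36me3 is added during elongation by methyltransferases that travel with RNA polymerase II, and in plants it starts close to the transcription start and runs into the gene body. H3K4me1 in plants lies mostly over transcribed gene bodies. An input is chromatin sequenced without enrichment, so its peaks show where reads pile up in the absence of an antibody. The library used here is an input by its title, but its antibody label names H3K27me3, so input shares are shares of overlap with a library whose labels disagree.

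The authors' peak lists were the data, with a start, an end and a peak-caller score for each region. They hold no read counts, so sequencing depth is unknown, and a missing peak means only that none was listed. With 1 H3K27ac library, no test between the marks was possible. Each value is therefore given for both H3K4me3 replicates, and 95% Wilson intervals on shares cover counting error only. Markers of the panicle could not be checked, because no annotation on the coordinates of the peaks was used here.

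Nearly all H3K4me3 peaks of replicate 1 lay on replicate 2, but the replicates differed in peak number, width and score. This difference touches every result on which mark reaches further. Replicate 1 held 21209 peaks over 29.3 Mb, with a median width of 1302 bp and a median score of 301.2. Replicate 2 held 25645 peaks over 55.9 Mb, with a median width of 2045 bp and a median score of 2364. In replicate 2, 9878 peaks (38.5%) sat at a score of 3100 or more, the apparent ceiling of the score scale, against 1 peak in replicate 1. Of the replicate 1 peaks, 99.5% overlapped replicate 2 by at least 1 bp. Of the replicate 2 peaks, 78.8% overlapped replicate 1, and 52.2% of replicate 2 bases lay inside replicate 1. H3K27ac held 27487 peaks over 67.0 Mb, with a median width of 1918 bp, a median score of 236.4 and 441 peaks (1.604%) at 3100 or more. The widest H3K27ac peak reached 25628 bp, against 6129 and 12310 bp in the H3K4me3 replicates.

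Most H3K4me3 peaks carried H3K27ac, while in the full lists, which differ in length, a larger part of the H3K27ac peaks lacked H3K4me3. An H3K27ac peak overlapped 19043 of 21209 H3K4me3 peaks of replicate 1 (89.8%, interval 89.4 to 90.2%) and 20750 of 25645 of replicate 2 (80.9%, 80.4 to 81.4%). The mean was 85.3% ± 6.28 (SD, n = 2), where 30.4% of all 187109 windows of 2 kb touched an H3K27ac peak. Seen from H3K27ac, 64.5% (63.9 to 65.0%) of 27487 peaks overlapped replicate 1 and 73.7% (73.1 to 74.2%) overlapped replicate 2, and 18.6% and 27.5% of the windows touched these lists. The mean was 69.1% ± 6.50 (SD, n = 2). The gap between the 2 means was smaller with equal peak numbers, at 81.7% of H3K4me3 and 77.4% of H3K27ac peaks. With scores of 100 or more the means were 80.3% ± 9.77 and 77.2% ± 7.37. By bases, 90.6% of replicate 1 lay inside H3K27ac, but only 39.6% of H3K27ac lay inside replicate 1. For the wider replicate 2 the shares were 75.3% and 62.8%. Shared bases exceeded those given by the covered lengths 5.06-fold and 4.20-fold, a mean of 4.63, which became 10.02 without peaks that overlap an input peak.

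Overlapping peaks of the 3 lists were joined into 31927 loci. Shared loci, with H3K27ac and H3K4me3 of both replicates, numbered 17497 (54.8%) and covered 54.1 Mb. H3K4me3-only loci, with both replicates and no H3K27ac, numbered 1930 (6.05%) over 3.67 Mb. H3K27ac-only loci, without H3K4me3 in either replicate, numbered 7201 (22.6%) over 13.3 Mb. Once peaks on input were removed, shared loci numbered 7382 and H3K27ac-only loci 4372. With scores of 100 or more 3678 H3K27ac-only loci were left, and with equal peak numbers 4298. H3K4me3-only loci numbered 2944 with equal peak numbers and 4895 without replicate 1. Replicate 2 of H3K4me3 without replicate 1 accounted for 2234 loci with H3K27ac and 2965 without. The reverse, replicate 1 without replicate 2, occurred at 40 loci with H3K27ac and 60 without.

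Shared loci were wider and scored higher than single-mark loci in each list. The median locus width was 2420 bp for shared, 1821 bp for H3K4me3-only and 1569 bp for H3K27ac-only loci. A locus joined from several peaks is at least as wide as its widest peak, so the span of each mark is the closer comparison. H3K27ac spanned a median of 2152 bp in shared and 1569 bp in H3K27ac-only loci. H3K4me3 spanned 1391 bp in shared and 977 bp in H3K4me3-only loci in replicate 1, and 2175 against 1819.5 bp in replicate 2. The median best H3K27ac score was 401.6 (quartiles 200.9 to 790.0) in shared and 95.7 (68.2 to 160.7) in H3K27ac-only loci. The median best H3K4me3 score was 344.7 against 106.5 in replicate 1 and 3100 against 956.4 in replicate 2, where 54.1% of shared loci stood at 3100 or more.

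The classes differed in H3K36me3, the elongation mark. An H3K36me3 peak overlapped 89.95% of shared loci (interval 89.5 to 90.4%), 60.8% of H3K4me3-only loci (58.6 to 62.9%) and 13.0% of H3K27ac-only loci (12.3 to 13.8%), against 27.8% of the windows. Wider loci can touch more peaks by their width alone. With the centre base of the locus in place of its whole width, the shares were 84.2%, 59.5% and 3.83%. H3K36me3 peaks covered 18.9% of the summed sequence length, the like value for a single base. H3K4me3-only loci thus stood above the background and H3K27ac-only loci below it by both measures. From the other side, 93.2% and 97.4% of the 18562 H3K36me3 peaks overlapped H3K4me3 replicate 1 and replicate 2, and 89.4% overlapped H3K27ac. H3K4me1 of replicate 1 followed the same order, at 71.8%, 43.7% and 18.5% of loci, with 23.5% of the windows touched. By the centre base its shares were 42.6%, 15.5% and 13.0%, against 16.4% of the summed sequence length, so only shared loci stood above the background by both measures.

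H3K27me3, the Polycomb mark, had the opposite order. Over its replicates 1, 2 and 3 it overlapped 4.21%, 9.13% and 11.2% of shared loci, against 8.38%, 13.7% and 16.2% of the windows. In H3K4me3-only loci the shares were 7.62%, 15.4% and 17.8%. In H3K27ac-only loci they were 25.7%, 38.6% and 42.3%, above the windows and above both other classes in each of the 3 libraries. All 3 H3K27me3 libraries had a peak at 24.4% of H3K27ac-only loci, 6.68% of H3K4me3-only loci and 3.75% of shared loci. A further 44.3% of H3K27ac-only loci had neither H3K36me3 nor any H3K27me3 peak, against 27.5% of H3K4me3-only and 5.88% of shared loci.

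**Figure D1:**
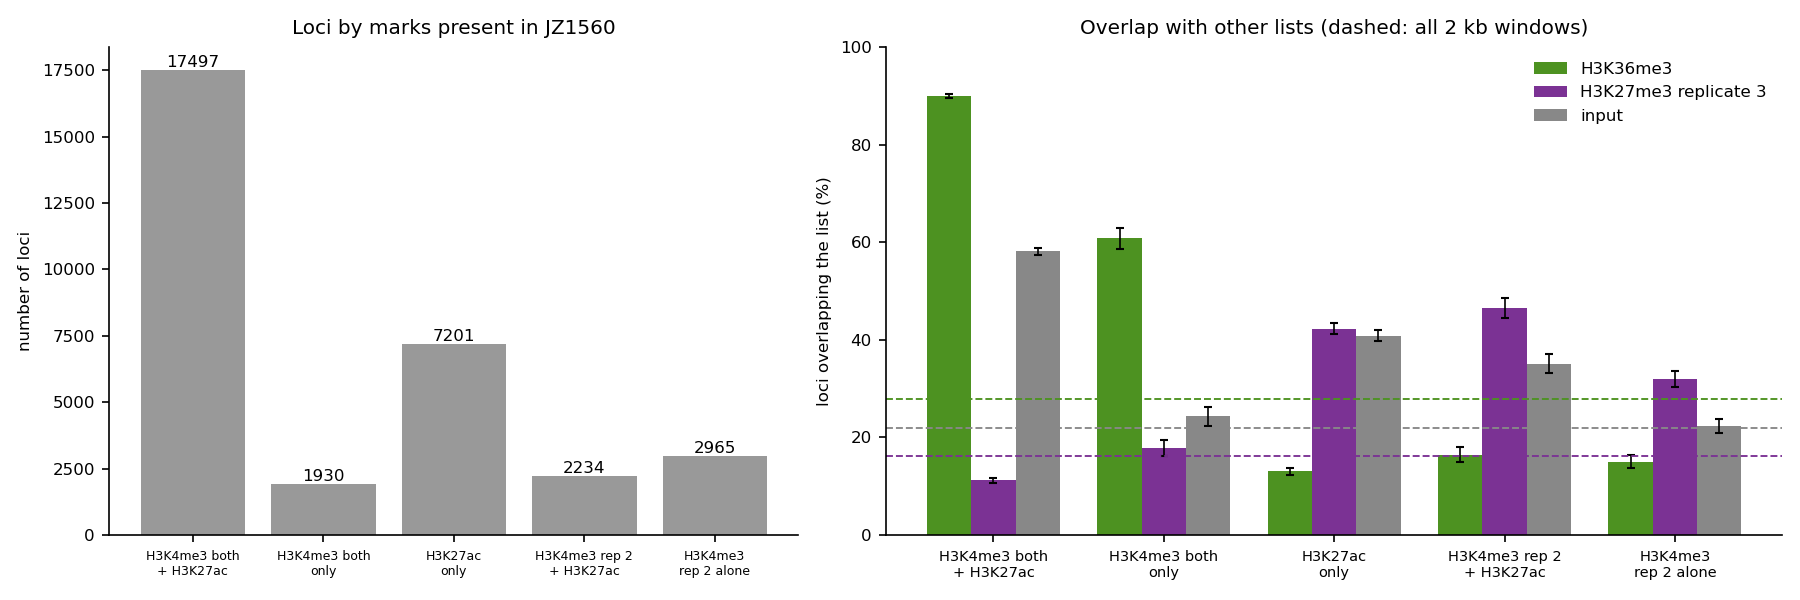
Left, the number of loci in the 5 larger classes. Right, the share of each class that overlaps an H3K36me3, H3K27me3 replicate 3 or input peak (%), with 95% Wilson intervals as error bars and the share of all 2 kb windows touched by each list as dashed lines. H3K36me3 falls from 89.95% of shared to 13.0% of H3K27ac-only loci, while H3K27me3 rises from 11.2% to 42.3%.

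Input peaks also differed between the classes. They overlapped 58.1% of shared loci (57.4 to 58.9%), 40.8% of H3K27ac-only loci (39.7 to 41.9%) and 24.3% of H3K4me3-only loci (22.4 to 26.3%), against 21.9% of the windows. H3K4me3-only loci were thus near the windows, and the classes with H3K27ac above them. Among loci without an input peak, H3K36me3 marked 87.4% of 7326 shared, 59.8% of 1461 H3K4me3-only and 8.96% of 4264 H3K27ac-only loci. The order of the classes was therefore the same without the input regions. H3K27me3 replicate 3 overlapped 52.2% of the H3K27ac-only loci without input and 27.9% of the 2937 with it. The H3K27ac score at these loci was also lower without input, with medians of 83.8 and 128.5. The part of input in these values was not tested.

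H3K36me3 and H3K27me3 seldom met at H3K27ac-only loci. The 938 loci with an H3K36me3 peak carried an H3K27me3 peak in any library at 6.50%, and the 6263 without H3K36me3 at 49.1%. The first set was 1913 bp wide in the median with a score of 133.6, the second 1541 bp with a score of 92.5. Of 3134 loci with any H3K27me3, 61 had H3K36me3. Shared loci showed a like division, since any H3K27me3 peak was found at 8.46% of the 15739 with H3K36me3 and 41.5% of the 1758 without. Shared loci without H3K36me3 were the low scorers, with medians of 119.5 in H3K4me3 replicate 1, 1079 in replicate 2 and 193.3 in H3K27ac.

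Loci with H3K4me3 in replicate 2 alone resembled H3K27ac-only loci more than shared ones in these measures. H3K36me3 overlapped 16.4% of those with H3K27ac and 15.0% of those without, and H3K27me3 replicate 3 overlapped 46.6% and 32.0%. Their replicate 2 scores had medians of 290.0 and 207.8. The HHZ H3K4me3 list, from the indica cultivar on the same coordinate names, touched 21.5% and 21.0% of them, against 17.5% of windows. It covered 17.0% and 19.1% of their centre bases, against 8.04% of the summed sequence length. It touched 83.8% of shared, 56.7% of H3K4me3-only and 1.15% of H3K27ac-only loci. The 2 HHZ H3K27ac lists touched 24.1% and 23.2% of shared, 16.6% and 16.5% of H3K27ac-only, and 5.60% and 6.11% of H3K4me3-only loci, with 8.42% and 8.29% of the windows.

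Peak score moved with overlap in every list, so the classes were also compared within quintiles of score. H3K27ac overlapped 67.1% of replicate 1 H3K4me3 peaks in the lowest quintile (scores 50.04 to 130.9), 87.7% in the next, and 99.6% in the highest. In replicate 2 the shares in the same quintiles were 43.6%, 70.5% and 99.0%. H3K4me3 of replicate 1 overlapped 24.0% of H3K27ac peaks in the lowest quintile and 96.1% in the highest, and replicate 2 overlapped 40.5% and 97.0%. Peaks without the other mark were thus concentrated at low scores on both sides.

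In the lower and middle score quintiles, replicate 1 H3K4me3 peaks with H3K27ac overlapped H3K36me3 more often than those without. The differences were smaller in replicate 2. In replicate 1 the shares of H3K36me3 with and without H3K27ac were 56.1% against 46.3% in the lowest quintile, 83.6% against 73.5% in the next, and 95.3% against 86.4% in the middle one. In replicate 2 they were 11.04% against 11.83%, 59.6% against 55.8%, and 91.2% against 86.1%. H3K27ac peaks differed far more by H3K4me3 at like score. With an H3K4me3 peak of either replicate, 47.6% of H3K27ac peaks in the lowest quintile overlapped H3K36me3, against 8.95% without. In the middle quintile the shares were 81.5% and 18.2%, and in the highest 95.02% and 37.6%.

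The highest H3K27ac quintile held 157 peaks without H3K4me3, of which 91.7% overlapped an input peak, against 81.1% of the 5340 with H3K4me3. In the lowest quintile input overlapped 28.1% and 28.7%, and in the quintiles between 39.9% against 32.3%, 58.5% against 45.7% and 80.2% against 58.6%. In 4 of the 5 quintiles input thus overlapped more of the H3K27ac peaks without H3K4me3 than of those with it, the reverse of the order between H3K27ac-only and shared loci taken over all scores. H3K27me3 replicate 3 overlapped 46.4% of H3K27ac peaks without H3K4me3 in the lowest quintile and 19.7% in the highest, against 27.8% and 8.76% of those with it.

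**Figure D2:**
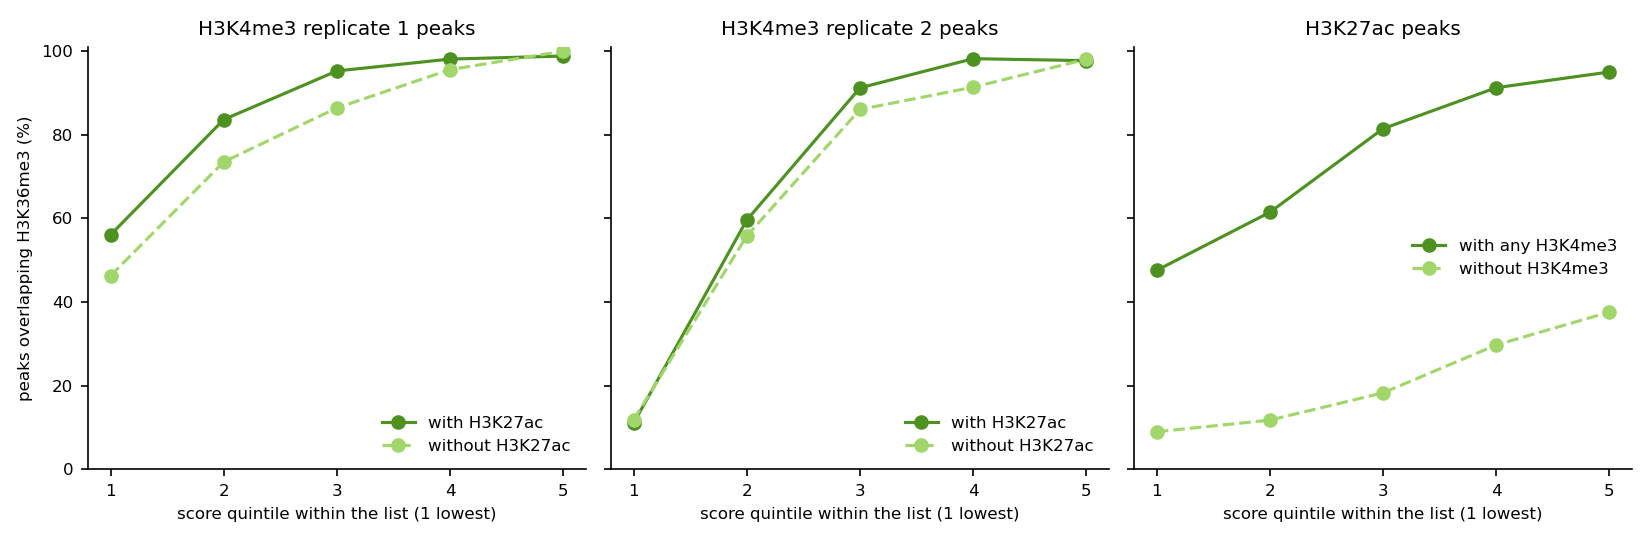
Share of peaks overlapping an H3K36me3 peak (%, vertical axis) by score quintile within each list (horizontal axis), for peaks with the other mark (solid) and without it (dashed). The lines lie closer together for the H3K4me3 replicates than for H3K27ac, where the middle quintile stands at 81.5% and 18.2%. The 2 highest quintiles of the H3K4me3 replicates hold 19 to 68 peaks each without H3K27ac.

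Which mark extended beyond the other depended on the H3K4me3 replicate. Extension was taken over pairs in which 1 H3K4me3 and 1 H3K27ac peak overlapped only each other, as the bases of H3K27ac past H3K4me3 summed over both ends, negative where H3K4me3 was the wider. Against replicate 1, over 16420 pairs, H3K27ac extended by a median of 726 bp (quartiles 426 to 1304 bp), 362 bp at the left end and 352 bp at the right. Against replicate 2, over 18453 pairs, the median was -65 bp (quartiles -320 to 379 bp). The mean of the medians was 330.5 ± 559.3 bp (SD, n = 2), so the direction was not settled beyond the spread of the replicates.

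H3K27ac reached past replicate 1 at both ends in 82.6% of pairs, and the reverse held in 1.21%. Against replicate 2, H3K27ac was the outer mark at both ends in 20.2% of pairs, H3K4me3 in 38.8%, and 41.0% had each mark outermost at 1 end or a shared edge. Large extensions were more often those of H3K27ac in either replicate, by a small margin in replicate 2 pairs without an input peak. H3K27ac was wider by over 1000 bp in 33.9% of replicate 1 pairs and 13.7% of replicate 2 pairs, and H3K4me3 by over 1000 bp in 0.0731% and 3.35%. In replicate 2 pairs with an input peak, H3K27ac was wider by that much in 21.4% and H3K4me3 in 3.44%. Without an input peak the replicate 2 shares were 4.88% and 3.25%, and the replicate 1 shares 19.0% and 0.0407%.

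**Figure D3:**
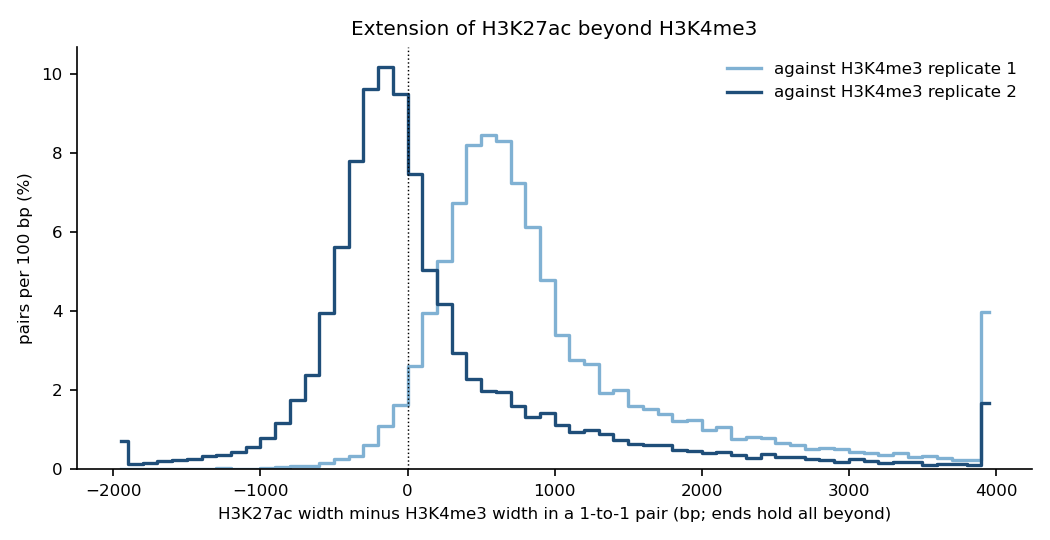
H3K27ac width minus H3K4me3 width in 1-to-1 pairs (bp, horizontal axis; the end bins hold all pairs beyond) against the percentage of pairs per 100 bp (vertical axis), for 16420 replicate 1 and 18453 replicate 2 pairs. The replicate 1 line lies to the right of 0, with a median of 726 bp, the replicate 2 line centres near 0, with a median of -65 bp, and both trail to the right.

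At 15647 loci each list had exactly 1 peak, so the 3 edges could be ordered at the same places. Median widths were 1343 bp for H3K4me3 replicate 1, 2053 bp for H3K27ac and 2116 bp for H3K4me3 replicate 2. H3K27ac lay between the replicates in width at 52.6% of these loci, was wider than both at 43.0% and narrower than both at 4.33%. The outermost left edge belonged to replicate 2 at 59.1% of loci, H3K27ac at 39.7% and replicate 1 at 0.780%, and the right edge gave 60.8%, 38.2% and 0.729%. Across these loci, as a description, Spearman's rho of width was 0.73 between the H3K4me3 replicates and 0.54 and 0.62 between H3K27ac and replicates 1 and 2. The rho of score was 0.70, 0.54 and 0.54.

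Extension rose with the H3K27ac score against either replicate. By quintile of H3K27ac score in the pairs, the median extension was 363, 566, 711.5, 933 and 1959.5 bp against replicate 1. Against replicate 2 it was -373, -217, -94, 66 and 862 bp, so that H3K27ac was the wider mark in the highest quintile whichever replicate was used. H3K27ac itself widened with its score, from a median of 1462 to 3856.5 bp in replicate 1 pairs and from 1420 to 3772.5 bp in replicate 2 pairs. Its width is a part of the extension, so the rise is not independent of the sorting by H3K27ac score. H3K4me3 also widened along these quintiles, from 1113.5 to 1785.5 bp in replicate 1 and from 1830 to 2680 bp in replicate 2. The share of pairs with an input peak rose as well, from 31.8% to 82.1% and from 30.5% to 82.0%. Pairs with an input peak had median extensions of 919 and 51 bp, and those without 576 and -159 bp. The part of score and input in the extension was not tested.

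**Figure D4:**
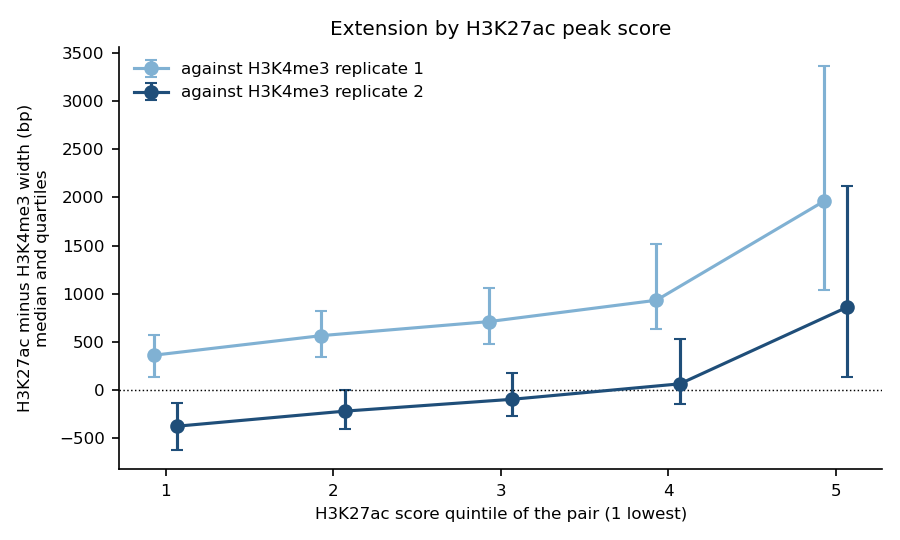
Median extension of H3K27ac beyond H3K4me3 in 1-to-1 pairs (bp, vertical axis; error bars are quartiles) by quintile of H3K27ac score (horizontal axis), for both H3K4me3 replicates. Medians rise from 363 to 1959.5 bp against replicate 1 and from -373 to 862 bp against replicate 2.

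The median extension was nearly the same at both ends relative to the gene body. The body side was taken as the end where H3K36me3 reached further past H3K4me3, since no gene annotation was used here. Over 14602 replicate 1 pairs with such a side, H3K27ac passed H3K4me3 by a median of 356 bp on the H3K36me3 side and 354 bp on the other. Over 14865 replicate 2 pairs the medians were -56 and -41 bp. The median differences within pairs, 17 and -20 bp, had opposite signs in the replicates. With the side taken from H3K36me3 beyond the other replicate's H3K4me3 peak both were negative, -29 and -31 bp, and with the side from H3K4me1 they were -7 and -21 bp. Long extensions were more frequent on the H3K36me3 side in both replicates. Extensions over 1000 bp occurred there in 16.3% of replicate 1 pairs, against 11.4% on the other side, and in 8.90% against 6.53% of replicate 2 pairs. With the side taken from H3K4me1, the shares were 16.1% against 8.83% and 9.81% against 4.49%. Both of these sides are set from the H3K4me3 edge that the extension is also measured from. With the side from H3K36me3 beyond the other replicate's H3K4me3 peak, the shares were 15.0% against 12.7% and 9.24% against 6.22%.

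Coverage was also taken around the centre of the H3K4me3 replicate 1 peak at 13977 shared loci, turned so that H3K36me3 reached further to the right. At 1 kb to the left and to the right, H3K27ac covered 52.8% and 53.0% of loci, H3K4me3 replicate 2 covered 62.4% and 65.3%, and replicate 1 covered 11.97% and 11.93%, a balance fixed by the centring. At 2 kb H3K27ac covered 18.4% and 18.3%, so the excess of long extensions on the H3K36me3 side was not seen in this coverage, which also counts neighbouring peaks. H3K4me1, which was not used to turn the loci, covered 5.77% and 75.03%. H3K36me3 covered 38.1% and 87.8%, a difference fixed by the turning.

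H3K27ac-only loci had another surround. H3K27me3 replicate 3 covered 37.9% of their centres, 32.0% and 31.6% of positions 1 kb away and 18.6% and 18.4% at 5 kb. H3K36me3 covered 3.83% of the centres and 23.3% and 23.2% of positions at 5 kb. At H3K4me3-only centres H3K36me3 covered 59.5% and H3K27me3 replicate 3 covered 13.9%.

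**Figure D5:**
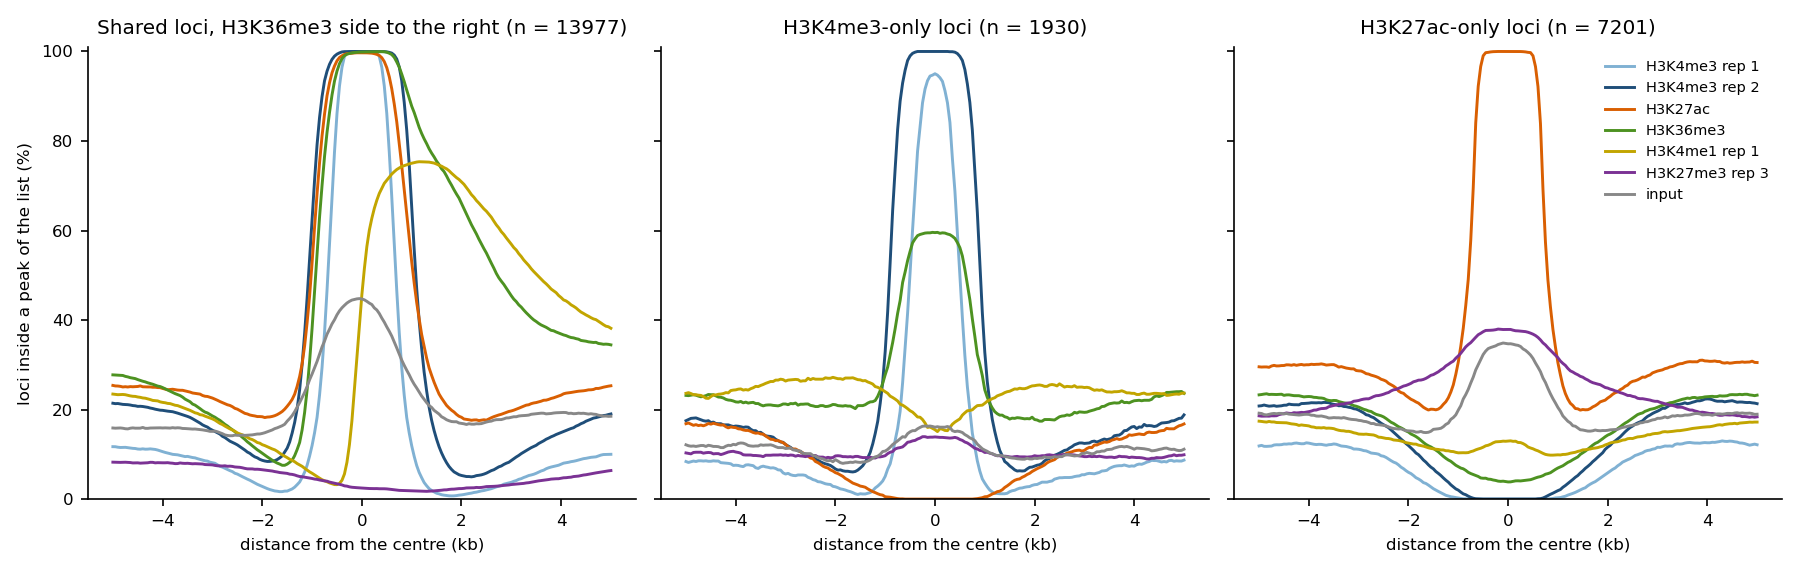
Share of loci inside a peak of each list (%, vertical axis) by distance from the centre (kb, horizontal axis), which is that of the H3K4me3 replicate 1 peak for 13977 shared loci turned by H3K36me3, and that of the locus for 1930 H3K4me3-only and 7201 H3K27ac-only loci. H3K27ac is symmetric at shared loci (52.8% and 53.0% at 1 kb), where H3K4me1 lies to the right, and H3K27me3 is highest at the centre of H3K27ac-only loci (37.9%).

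Counted in bases, the 2 marks and both H3K4me3 replicates met in 26.5 Mb, of which 89.0% lay in H3K36me3 peaks. H3K4me3 of both replicates outside H3K27ac took 2.70 Mb, with 63.8% in H3K36me3. H3K27ac and replicate 2 outside replicate 1 took 15.6 Mb, with 53.9% in H3K36me3. H3K27ac outside all H3K4me3 took 24.9 Mb, and 11.5 Mb of it lay in loci that did have an H3K4me3 peak. These flanks and the H3K27ac-only loci (13.3 Mb) differed in the other marks. H3K36me3 covered 29.5% of the flanks and 5.64% of the H3K27ac-only bases, H3K4me1 covered 39.8% and 13.0%, and H3K27me3 replicate 3 covered 6.25% and 33.5%. Input covered 43.2% and 34.4%.

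Very wide H3K27ac peaks often ran across several H3K4me3 peaks. Of all H3K27ac peaks, 1207 (4.39%, median width 5436 bp) covered 2 or more replicate 1 peaks, up to 6, and 916 (3.33%, 6515 bp) covered 2 or more replicate 2 peaks, up to 5. H3K4me3 peaks with 2 or more H3K27ac peaks were fewer, 58 in replicate 1 and 506 in replicate 2. Among the 199 H3K27ac peaks over 10 kb, 68.3% held 2 or more replicate 1 peaks and 98.5% overlapped an input peak, with 58.9% of their bases in input.

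Most H3K27ac-only loci lay over 1 kb from H3K4me3. Their nearest H3K4me3 peak of either replicate lay at a median of 3040 bp (quartiles 1221 to 7272 bp), 20.7% lay within 1 kb and 17.3% over 10 kb away. H3K4me3-only loci lay at a median of 4564 bp from H3K27ac (quartiles 2127.5 to 9441 bp), with 5.54% within 500 bp.

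Coordinates of the examples count from 1, with the starts in the peak lists read as counting from 0. The genome build of the lists is not given in the sources used here. The examples are among the loci of highest score rank without a JZ1560 input peak, and so are extremes of their classes. The HHZ input list was not used to choose them, and it covered 41.8% of the chromosome 3 locus, 47.6% of the chromosome 2 locus, 0% and 76.1% of the H3K4me3-only loci and 44.1% and 43.5% of the H3K27ac-only loci named here. The first shared locus, on chromosome 3 (4408566 to 4419783), was 11218 bp wide. H3K27ac ran over 11201 bp as 1 peak of score 3100, across 2 H3K4me3 peaks in each replicate with best scores of 2100 and 3100. H3K36me3 covered 77.3% of it and H3K27me3 0% in each library. The shared locus on chromosome 2 (34181879 to 34185081) had 1 peak per list. There replicate 1 spanned 2067 bp, replicate 2 2681 bp and H3K27ac 3075 bp, with H3K36me3 over 85.9%.

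The first H3K4me3-only locus, on chromosome 1 (5597238 to 5599876), scored 511.2 in replicate 1 and 3149 in replicate 2. H3K36me3 covered 95.3% of it and H3K27me3 covered 43.0%, 89.8% and 96.6% in its 3 libraries, so both of these marks were listed over the same bases. The next, on chromosome 7 (25998250 to 26001137), scored 856.0 and 3100 and lay 97.8% in H3K36me3, with 0% in each H3K27me3 library. The first H3K27ac-only locus, on chromosome 1 (21693878 to 21701800), was a single peak of 7923 bp and score 1166, with 24.6% in H3K36me3 and 0%, 38.8% and 43.8% in H3K27me3. The next, on chromosome 6 (6167640 to 6174242), was 6603 bp wide with a score of 1103, 26.7% in H3K36me3 and 0% in H3K27me3. These 2 are not typical of H3K27ac-only loci without input. That set had a median width of 1484 bp and a median score of 83.8, and 8.96% of it overlapped H3K36me3.

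The largest extensions were those of H3K27ac. On chromosome 8, an H3K27ac peak of 25628 bp (25464627 to 25490254) surrounded a replicate 2 peak of 4231 bp and passed it by 16905 bp on the left and 4492 bp on the right, with 67.4% of the H3K27ac peak in input. On chromosome 1, a 17651 bp H3K27ac peak (39008843 to 39026493) passed a replicate 1 peak of 2624 bp by 15027 bp and the replicate 2 peak of 3861 bp by 13790 bp. Input covered 67.6% of this H3K27ac peak. The largest extension of H3K4me3 was 4661 bp, by a replicate 2 peak of 6226 bp on chromosome 1 (4037974 to 4044199) over an H3K27ac peak of 1565 bp and score 139.9. In replicate 1 it was 1908 bp, on chromosome 1 (10622750 to 10626464).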

How the data were processed

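Per the file headers, MACS had called the peaks library by library. The score of a peak is given as deposited by the authors, its scale is not defined there, and it was used only to rank, filter or describe peaks within a list. BWA, FastQC, HTSeq and TopHat2 appear, with no version, in the submitters' processing notes. Not given in the sources used here are the build of the genome, the calling threshold and the control. More reads can give more and wider peaks, and without a control regions enriched in input can be listed for any mark.

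Peaks sharing at least 1 bp were counted as overlapping and joined into loci over the 3 lists. H3K36me3, H3K4me1, H3K27me3 and input of JZ1560 and 5 HHZ lists were then overlaid. Background shares were taken over windows of 2 kb on 374 Mb, the summed furthest peak ends of 14 sequences, and coordinates count from 1. Score quintiles are 5 groups of equal size by rank, and many replicate 2 peaks tie at the top. Python 3.11.15, numpy 2.4.6, scipy 1.17.1 and pandas 2.3.3 were used, and the overlap functions were tested on simulated data.

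Members, classes and named regions were chosen with earlier results of these data known. Named regions were the 3 of highest mean score rank per class, over all loci and without input, and the 2 largest extensions per direction and replicate, of which the text names a part. No test was run, because H3K27ac has 1 library. The alternatives joined peaks within 500 bp, removed peaks on input, asked for 50% of the shorter peak, took equal peak numbers, kept only scores of 100 or more, or left out either H3K4me3 replicate. The centre base, either replicate, and other choices of the gene body side were added after seeing the data. HHZ H3K27me3 and H3K4me1, wheat and RNA were not used here.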

Additional observations from a re-analysis of the deposited data

How the results depend on the processing

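Under the alternatives, 49 recomputed values stayed close to the main one, 36 moved and 4 changed sign. Close means within the spread of the replicates or the counting interval of a share, and for numbers of loci within 1.5 times the main number, which is far wider than counting error. With 2 replicates, the value without either one always lies within that spread. For means over the replicates, those settings could therefore record only a change of sign. H3K27ac extension, 330.5 bp in the mean of both replicates, ranged from -65 to 726 bp with 1 H3K4me3 replicate left out, and was -65 bp without replicate 1. The difference between the H3K36me3 side and the other, -1.5 bp, ranged from -20 to 17 bp in the same way. It was 8.5 bp with scores of 100 or more, 9.5 bp with equal peak numbers and -30.0 bp with the side taken from the other replicate's peak.

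Without peaks on input, H3K27ac overlapped 71.0% of H3K4me3 peaks (main value 85.3%), H3K4me3 overlapped 61.2% of H3K27ac peaks (69.1%), and the fold was 10.02 (4.63). The highest fold possible rises as less sequence is covered, so the folds of these settings do not compare the strength of overlap. Shared loci then numbered 7382 and H3K27ac-only loci 4372, and H3K36me3 marked 87.3% and 9.79% of them. Their input shares are 0 there by construction and were left out. With scores of 100 or more, H3K4me3 overlapped 77.2% of H3K27ac peaks, and 3678 H3K27ac-only loci were left. H3K36me3 then marked 92.2% of shared and 16.4% of H3K27ac-only loci, and input, whose list was shortened too, 34.6% and 30.5%. With equal peak numbers the H3K27ac share was 77.4%, H3K4me3-only loci numbered 2944 and H3K27ac-only loci 4298. H3K36me3 then marked 92.5% of shared and 15.6% of H3K27ac-only loci, and input 60.8% and 50.4%. By the centre base these were 84.2% and 3.83% for H3K36me3, and 44.0% and 34.7% for input.

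With H3K4me3 of either replicate, H3K4me3-only loci numbered 4955. Leaving out a replicate gave 2166 to 4895 of them, the higher number without replicate 1. H3K36me3 then marked 81.6% to 89.7% of shared and 13.2% to 14.3% of H3K27ac-only loci, and input 55.5% to 57.1% and 39.6% to 40.9%. An overlap of 50% put H3K36me3 at 13.8% of H3K27ac-only loci. Joining put it at 10.5%, with input at 58.9% of shared and 39.4% of H3K27ac-only loci. The cause of these shifts was not tested beyond the construction named. In each setting H3K36me3 marked a larger share of shared than of H3K27ac-only loci. No paired analysis was possible because H3K27ac has 1 library, so the marks share fewer than 2 replicate numbers. Unknown depth limits every count of single-mark loci.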

Other observations

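The share of H3K4me3 loci of both replicates that lacked H3K27ac was highest on chromosomes 11 and 12, at 16.8% and 17.2%, and lay between 7.65% on chromosome 3 and 11.3% on chromosome 10 over the other 10 chromosomes. In steps of 5 Mb it ranged from 11.05% to 21.5% along chromosome 11 and from 14.1% to 19.2% along chromosome 12, and was highest in the first step on both. H3K27ac-only loci on chromosome 11 overlapped H3K27me3 replicate 3 at 62.6%, against 33.8% on chromosome 3. No background share of H3K27me3 was taken per chromosome, so this difference cannot be read as particular to H3K27ac-only loci. Shared loci were least dense on chromosome 11, at 29.9 per Mb, and densest on chromosome 3, at 63.4 per Mb, over the 12 chromosomes.

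The same comparison in HHZ gave other values. H3K27ac replicates 1 and 2 overlapped 20.8% and 19.7% of the 18741 HHZ H3K4me3 peaks, and in 3529 and 3342 1-to-1 pairs H3K27ac extension had medians of -639 and -624 bp. The HHZ H3K27ac lists were shorter and scored lower, with 10682 and 10486 peaks and 17.3% and 17.6% of scores at 100 or more, against 76.02% in JZ1560. HHZ input overlapped 50.2% of the peaks in each. The cultivar and the library cannot be told apart here.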
